A study of Mus musculus with 8 samples.

Results

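The genes described here are the major histocompatibility complex (MHC) genes and the interferon-induced families of the mouse, 97 of the 40800 genes in a table of RNA levels from dorsal root ganglia. They were chosen by symbol alone, with no measured value, and comprise every H2- symbol, the numbered Ifit, Ifitm, Gbp, Oas and Oasl genes, and transcription factors and effectors picked by name, among them Irf2, Irf3, Irf5, Stat2, Tap1, Tap2, Psmb8, Psmb9, B2m, Cd74, Ciita, Isg15 and Bst2. Dorsal root ganglia hold the cell bodies of sensory neurons together with glia, vessel cells, fibroblasts and macrophages. Total RNA was sequenced from ganglia of 4 wild-type C57BL/6 mice, labelled 1, 3, 4 and 8, and of 4 mice with a gene trap on both copies of Tmem184b on a C57BL/6 background, labelled 1 to 4. All were 6 months old. A gene trap is an insertion that ends a transcript early, and Tmem184b encodes a transmembrane protein. The labels give no sex, litter, batch or pooling, and nothing in them says how the 8 samples relate beyond genotype, so the p-values measure only the spread between these samples. The sample headers also carry running numbers whose meaning is not given. They are consecutive for the 4 mutants and higher for every wild type, highest for wild type 8. Whatever they stand for cannot be told apart from genotype.

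The MHC class I pathway shows peptides from inside a cell to cytotoxic T cells. The immunoproteasome cuts the peptides, the TAP transporter carries them into the endoplasmic reticulum, and they are displayed by a class I heavy chain paired with beta-2 microglobulin. Class II molecules show peptides from ingested material to helper T cells and are made mainly by macrophages, dendritic cells and B cells under the control of Ciita. Type I interferons bind receptors that activate STAT proteins, which with IRF9 switch on antiviral genes, while interferon gamma acts in part through IRF1 and also raises class I, class II and guanylate-binding protein genes.

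Library totals ran from 6183618 to 7983821, which makes 1 read 0.125 to 0.162 CPM (reads per 1000000 reads of the library). Tmem184b checked the labels, at 1086 to 1456 reads in wild types against 34 to 58 in mutants. Xist, which only females express strongly, had 2 to 7 reads in wild type 3 and mutants 3 and 4 and 1615 to 1902 in the other 5 mice. Of 8 sensory neuron markers, all passed the filter for testing, and their summed level was 8792 to 9590 CPM in wild types against 8710 to 9288 CPM in mutants. Of the 8, 5 had values below 0, and 1, the actin-binding protein gene Avil, was called lower (-0.22 in log2 CPM, SE 0.0509; adjusted p = 0.0203 from limma). Of all 15030 genes tested, 5346 had values below 0 and 2.64% were called lower. The Avil call was missed without wild type 1 (limma adjusted p = 0.0657), wild type 3 (0.0574), mutant 1 (0.0588) or mutant 2 (0.0507), after quantile normalization (0.0929) and without the variance trend (0.117). Markers of skeletal muscle, which lies around the ganglia, summed to 2.86 to 31.6 CPM in wild types against 10.2 to 149 CPM in mutants, highest in mutant 4. The part of muscle tissue or of neuron content in the results was not tested.

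Among these genes 1, Ifit2, was called lower in the mutant, none was called higher, and none had an estimated difference as large as 2-fold. Of the 97 genes, 57 had a log2 CPM above 0 in at least 4 samples and were tested, and 29 had reads but not enough. The other 11, annotated pseudogenes among them, had 0 reads in every library. A call needed an adjusted p under 0.05 from limma, with the Benjamini-Hochberg adjustment over all 15030 genes tested. Ifit2 was the 1 call among the 57, a share of 1.75% of the 57 beside 5.46% of all genes tested (2.81% higher and 2.64% lower). An unadjusted limma p under 0.05 was reached by 8 of the 57, or 14.0%, with 3 higher and 5 lower, beside 21.3% of all genes tested (14.1% higher and 7.21% lower). Groups did not overlap for 3 genes, Ifit2 and Irf2 below and Irf5 above the wild types, which is 5.26% beside 12.4% of all genes tested (7.50% higher and 4.92% lower). The balance of calls over all genes, 423 higher and 397 lower, depended on scaling and was 204 and 706 after centring each sample on its median, 271 and 422 after quantile normalization and 253 and 535 with voom on recovered reads.

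Differences are log2 CPM of the mutant minus that of the wild type, on a scale to which the authors added a small count before the logarithm, which understates changes of genes with few reads. Of the 57 genes, 29 had values above 0 and 28 below, beside 9684 above and 5346 below of the 15030 genes tested. Counts of values above or below 0 elsewhere stand beside that balance, which is not even. The median difference of the 57 was 0.002 beside 0.066 for all genes tested. After median centring these medians were -0.09 and -0.026, and after quantile normalization -0.11 and 0.003. No member differed by 1 or more, and the widest difference was -0.86 for Gbp6. The 95% confidence interval lay within a 2-fold change in either direction for 49 of the 57 genes and within 1.5-fold for 19. In bulk tissue, fewer cells of a type and less RNA per cell cannot be told apart.

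**Figure D1:**
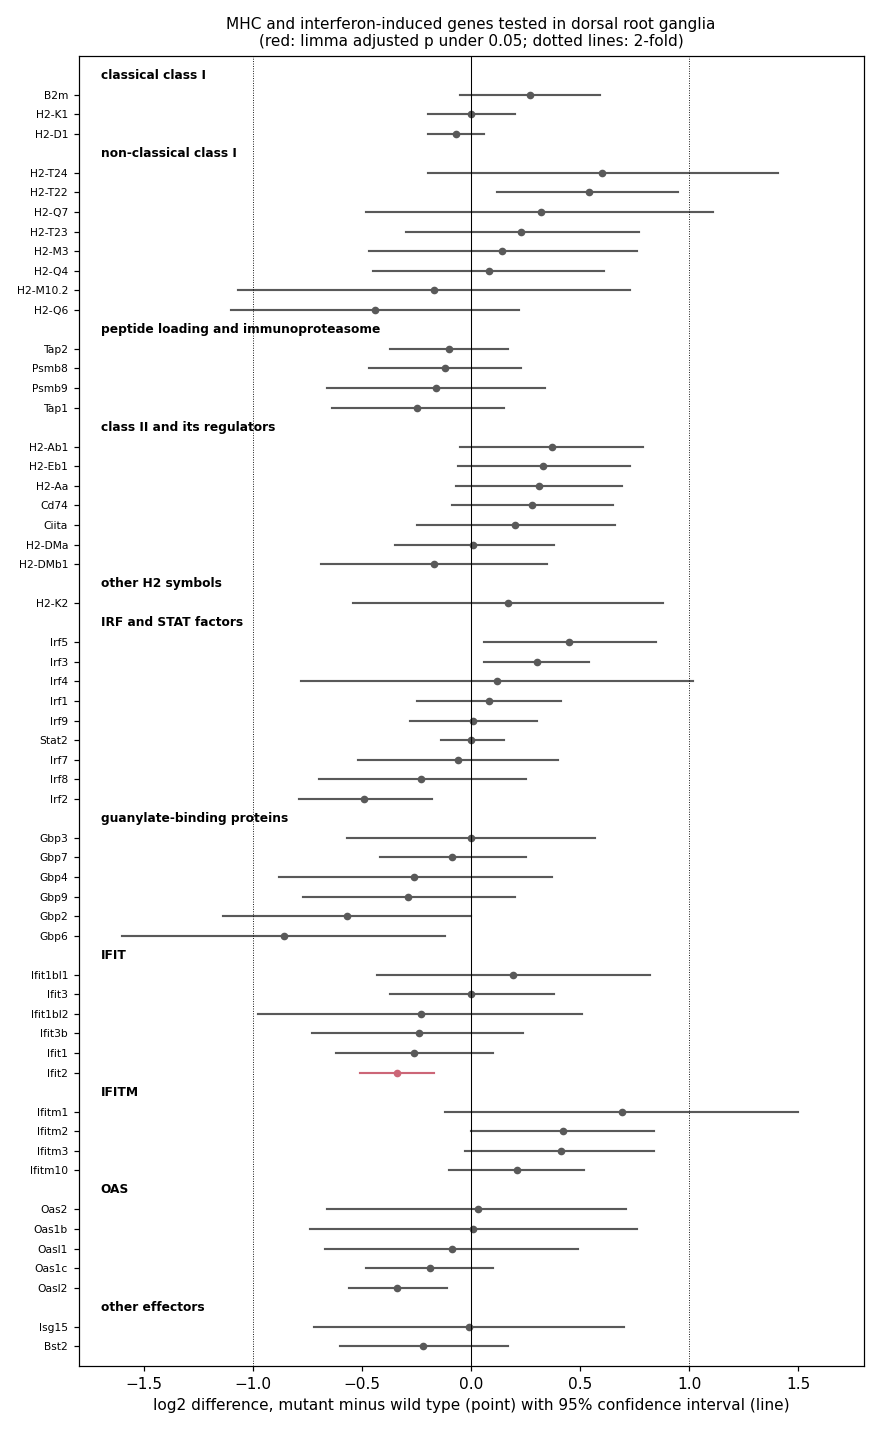
Each row is 1 of 55 of the 57 genes tested, grouped by role, with the log2 difference of mutant minus wild type (point, horizontal axis) and its 95% confidence interval (line), dotted lines at 2-fold, and the called gene in red. Ifit2 at -0.34 is the 1 gene called, and most intervals include 0.

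Levels of different genes are compared per kilobase of merged exons. Averaged over the 8 samples, B2m was at 154 CPM per kilobase, H2-D1 at 52.4, Cd74 at 37.6, Ifitm3 at 33.4 and H2-K1 at 20.6. Ifit2, at 6.94 CPM per kilobase, was close to Bst2 at 7.29 and H2-Aa at 6.92. The 40 genes outside the test had at most 7 reads in any library, and 27 of the 97 never exceeded 3 reads, the count up to which a gene was taken as not detectable at this depth.

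The promoters bear on the shared control of these genes by interferon, and those of the genes below are printed because Ifit2 and Irf2 are the genes lower in every mutant and Ifit1, Isg15 and B2m are textbook interferon targets or partners that were not called. Sequences are from RefSeq on GRCm38.p6, 5′ to 3′ on the gene's own strand, and end at the base before the annotated start. They lie at chr19:34550444-34550693 (plus strand) for Ifit2, chr8:46739495-46739744 (plus) for Irf2, chr19:34640739-34640888 (plus) for Ifit1, chr4:156200819-156200968 (minus) for Isg15 and chr2:122147537-122147686 (plus) for B2m. Capitals mark matches on either strand to the interferon-stimulated response element (ISRE), searched as GAAA, then 2 bases of any kind, then GAAA, and bound by STAT complexes that hold IRF9 and by other IRFs, or to the gamma-activated site (GAS), searched as TTCNNNGAA and bound by STAT dimers.
Ifit2: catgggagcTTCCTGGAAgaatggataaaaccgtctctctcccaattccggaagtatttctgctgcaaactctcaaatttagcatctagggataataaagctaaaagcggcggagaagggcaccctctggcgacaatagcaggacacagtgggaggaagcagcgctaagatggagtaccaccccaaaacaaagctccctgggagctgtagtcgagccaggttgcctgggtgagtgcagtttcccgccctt
Irf2: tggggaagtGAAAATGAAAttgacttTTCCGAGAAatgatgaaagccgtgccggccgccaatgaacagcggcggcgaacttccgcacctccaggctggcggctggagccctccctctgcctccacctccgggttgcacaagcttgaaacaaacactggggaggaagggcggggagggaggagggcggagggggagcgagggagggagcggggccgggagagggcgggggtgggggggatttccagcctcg
Ifit1: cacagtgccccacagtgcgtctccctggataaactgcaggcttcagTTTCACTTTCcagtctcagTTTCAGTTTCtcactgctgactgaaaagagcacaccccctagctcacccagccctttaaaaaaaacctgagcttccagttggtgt
Isg15: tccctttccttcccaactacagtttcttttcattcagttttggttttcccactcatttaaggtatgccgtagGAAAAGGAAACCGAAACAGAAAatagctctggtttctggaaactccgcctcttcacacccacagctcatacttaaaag
B2m: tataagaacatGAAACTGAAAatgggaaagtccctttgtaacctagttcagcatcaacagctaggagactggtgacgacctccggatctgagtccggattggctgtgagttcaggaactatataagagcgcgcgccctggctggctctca
The Ifit2 window held 1 GAS match and no ISRE match, which says only that those letters are not in that window. The window of another annotated Ifit2 start held no match of either kind. Irf2 held 1 ISRE match and 1 GAS match that do not overlap, Ifit1 held 2 ISRE matches, Isg15 held 3 ISRE matches that overlap each other, and B2m held 1. Of the 97 genes, 70 were found by symbol in the promoter table, which spans 250 bases before to 50 after the start. An ISRE match was in 30.0% of these 70, in 40.9% of the 44 that were tested and in 3.99% of all 27025 genes in the table. The share by family was 5 of 6 for IFIT, 3 of 3 for guanylate-binding proteins, 4 of 8 for OAS and 0 of 8 for class II. Windows of Ifit1 and Ifit1bl2 overlap on opposite strands and hold the same 2 ISRE matches, which were counted for both genes. GAS matches were in 18.6% of the 70, 20.5% of the 44 and 9.55% of all. The 18 tested genes with an ISRE match had a median difference of -0.006 (-0.57 to 0.54), and the 26 without had 0.003 (-0.44 to 0.69). These matches describe letters and are not measured binding sites.

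B2m and H2-D1, which had the highest levels per length, and H2-K1 make up the classical class I genes, and none of the 3 was called. H2-K1 and H2-D1 encode the class I heavy chains of this strain. Their transcripts are 90.6% identical over 1404 bases, so the split of reads between them is uncertain. H2-K1 was at 61.0, 50.4, 69.8 and 62.1 CPM in wild types 1, 3, 4 and 8, against 61.1, 58.5, 54.7 and 67.6 CPM in mutants 1 to 4. The groups overlapped fully, and the difference was -0.00 with a 95% confidence interval of -0.20 to 0.20 (limma adjusted p = 0.993). H2-D1 was at 138, 126, 149 and 140 CPM in wild types against 136, 130, 130 and 131 CPM in mutants. Its difference was -0.07 (SE 0.0595, 95% confidence interval -0.20 to 0.06; limma adjusted p = 0.554). B2m, the light chain of all class I molecules, was at 87.8, 105, 135 and 154 CPM in wild types against 151, 126, 122 and 175 CPM in mutants. Wild types 1 and 3 lay below every mutant and the other wild types among them, and the difference was 0.27 (SE 0.148; limma adjusted p = 0.315). It was 0.13 without wild type 1, 0.17 without mutant 4 and 0.40 without wild type 8. Over samples 1, 3 and 4 of both genotypes alone B2m differed by 0.46. It was called there with a block for the shared numbers (limma adjusted p = 0.0247) and not without (0.122).

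The immunoproteasome subunits Psmb8 and Psmb9 and the transporter subunits Tap1 and Tap2 all had values below 0, and 0 of these 4 genes were called. Their median difference was -0.14, beside 0.066 for all genes tested. Tap1, with the lowest value, was at 7.30, 8.77, 9.78 and 13.8 CPM in wild types against 8.37, 6.31, 9.24 and 8.72 CPM in mutants. Wild type 8 stood highest and the remaining samples overlapped, with a difference of -0.25 (SE 0.185; limma adjusted p = 0.480). Tap2 differed by -0.10, Psmb8 by -0.12 and Psmb9 by -0.16, with limma adjusted p of 0.692, 0.728 and 0.749. Tap1 and Psmb9 overlap on opposite strands, and the use of strand in counting is not given in the sources used here, so their reads may be shared.

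Non-classical class I genes encode relatives of the heavy chains with narrower roles, such as H2-T23, which presents leader peptides to NK cell receptors, and H2-M3, which presents formylated bacterial peptides. Of 28 such genes, some of them annotated as pseudogenes, 8 were tested, 13 were under the filter and 7 had 0 reads throughout, and none was called. The tested genes had a median difference of 0.19, with 6 above 0 and 2 below. H2-T22, a ligand of some gamma delta T cell receptors, had an unadjusted p under 0.05 and is described although chosen after its values were seen. It was at 6.03, 7.64, 8.45 and 5.18 CPM in wild types against 10.8, 12.3, 6.93 and 10.3 CPM in mutants. Mutants 1, 2 and 4 lay above all wild types and mutant 3 among them, and the difference was 0.54 (SE 0.193; limma adjusted p = 0.122). Without mutant 3 it was 0.70 and called, at a limma adjusted p of 0.0331. H2-T24 varied most within groups of the 57 genes, with a pooled SD of 0.79 on the log2 scale. Its reads were 41, 90, 113 and 27 in wild types against 55, 112, 61 and 120 in mutants, and the difference was 0.60 (95% confidence interval -0.20 to 1.41; limma adjusted p = 0.379). H2-Q6 had the lowest value, -0.44 (SE 0.309; limma adjusted p = 0.448). H2-K2, annotated as a pseudogene and placed in none of the groups, had 4 to 13 reads per library and differed by 0.17 (limma adjusted p = 0.813). Counts in this family are uncertain, because H2-T22 shares 97.4% identity with H2-T10 over 1495 bases, because H2-Q6 shares 94.1% with H2-Q7 over 1040 bases, and because A930015D03Rik overlaps H2-T22, H2-T23 and H2-T24 on the other strand.

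Class II genes, which with Cd74 and Ciita number 14, included 7 that were tested, and none was called. The median difference was 0.28, with 6 values above 0 and 1 below. H2-Ab1, the beta chain of the I-A molecule, was at 23.8, 18.4, 37.9 and 23.0 CPM in wild types against 29.9, 28.9, 26.3 and 46.8 CPM in mutants. Mutant 4 was highest and wild type 4 next, the other wild types lay below every mutant, and the difference was 0.37 (SE 0.196; limma adjusted p = 0.307). Cd74, the invariant chain that guides class II molecules through the cell, was at 53.2, 43.0, 75.3 and 55.9 CPM in wild types against 75.7, 53.2, 55.6 and 93.1 CPM in mutants. Wild type 4 was level with mutant 1 and mutant 4 stood above both, while mutants 2 and 3 lay among the other wild types. Cd74 differed by 0.28 (SE 0.172; limma adjusted p = 0.378). H2-Aa, the I-A alpha chain, differed by 0.31 and H2-Eb1, the beta chain of I-E, by 0.33, with limma adjusted p of 0.336 and 0.321. Single samples moved these values, and without mutant 4 they were 0.12 for Cd74, 0.11 for H2-Aa, 0.19 for H2-Ab1 and 0.17 for H2-Eb1. Without wild type 4 they were 0.42, 0.44, 0.57 and 0.50 in the same order, and without wild type 3 they were 0.15, 0.25, 0.22 and 0.26. Over samples 1, 3 and 4 of both genotypes alone Cd74 differed by 0.39 and H2-Eb1 by 0.45. Both were called there with a block for the shared numbers (limma adjusted p = 0.0229 and 0.0441) and not without (0.304 and 0.251). H2-Ea-ps, which stands for the I-E alpha chain that C57BL/6 mice do not make, had 0 reads in all 8 libraries, which allows up to 3 reads in each. Ciita, the master regulator of class II transcription, had 18 to 30 reads in wild types against 24 to 28 in mutants and differed by 0.20 (95% confidence interval -0.25 to 0.66). H2-DMa and H2-DMb1, which encode the peptide editor H2-M, differed by 0.01 and -0.17, and the reads of H2-DMb1 may be shared with H2-DMb2, which is 95.7% identical over 1081 bases.

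Summed macrophage, fibroblast and red blood cell markers were highest in the same sample of each genotype as the summed class II transcripts. Mutant 4 was also the highest mutant for satellite glia, dendritic cell, leukocyte, neutrophil, skeletal muscle and sensory neuron markers. A peak in mutant 4 is thus not particular to any of these lists. The 4 transcripts Cd74, H2-Aa, H2-Ab1 and H2-Eb1 summed to 119, 103, 179 and 125 CPM in wild types 1, 3, 4 and 8 and to 169, 128, 134 and 227 CPM in mutants 1 to 4. The 13 macrophage markers summed to 67.0, 60.1, 96.6 and 73.5 CPM in wild types against 108, 95.7, 81.5 and 129 CPM in mutants. Wild type 4 was the highest wild type and mutant 4 the highest mutant in both sums. Of the 12 macrophage markers tested, 11 had values above 0, with a median difference of 0.34, and 1, the scavenger receptor gene Cd163, was called higher (0.80, SE 0.184; limma adjusted p = 0.0208). The Cd163 call was missed without mutant 1 (limma adjusted p = 0.0727), mutant 4 (0.0631) or wild type 8 (0.0552), and without the variance trend (0.110). No macrophage marker was at 3 reads or fewer throughout. Fibroblast markers summed to 791, 619, 1222 and 611 CPM in wild types against 1014, 967, 794 and 1177 CPM in mutants, again highest in wild type 4 and mutant 4. All 6 of them had values above 0, with a median of 0.30, and 1, the proteoglycan gene Dcn, was called higher (0.60, SE 0.114; limma adjusted p = 0.00820). Satellite glia markers summed to 1792 to 2191 CPM in wild types against 1974 to 2778 CPM in mutants, highest in wild type 8 and mutant 4. All 5 had values above 0, with a median of 0.25, and 1, the glutamine synthetase gene Glul, was called higher (0.49, SE 0.0977; limma adjusted p = 0.0101). Neither Dcn (limma adjusted p = 0.106) nor Glul (0.110) was called with no variance trend, and the Dcn call was missed also with a robust trend (0.0606). Red blood cell markers summed to 39.9 to 108 CPM in wild types against 65.0 to 124 CPM in mutants, highest in wild type 4 and mutant 4, and none was called. Dendritic cell markers summed to 46.5 to 55.5 CPM in wild types against 45.9 to 59.1 CPM in mutants, with 4 of 5 tested above 0 and 0 called. Their sum was highest in wild type 3 and mutant 4. The 4 leukocyte markers had a median of -0.023, with 2 above 0 and 2 below, and none was called. Their values ran from -0.36 to 0.52, the highest for Ptprc (SE 0.262; limma adjusted p = 0.273). The 4 summed to 103 to 113 CPM in wild types, highest in wild type 3, against 98.3 to 114 CPM in mutants, highest in mutant 4. Most of that sum was Coro1a, at 86.2 to 102 CPM in wild types against 79.6 to 93.1 CPM in mutants. The sum therefore says little about the other 3 genes. Endothelial markers (109 to 176 against 114 to 197 CPM) were highest in wild type 4 and mutant 1. So were Schwann cell markers (2197 to 2897 against 2541 to 3045 CPM). Neutrophil markers were highest in wild type 8 and mutant 4. Only 1 of 6 B cell and 1 of 9 T and NK cell markers passed the filter, and Cd3d, Cd3e, Cd3g, Cd8a, Ncr1, Klrb1c and Nkg7 were at 3 reads or fewer in every library. These marker counts stand beside 2.81% called higher and 2.64% called lower of all genes tested. Of those 15030 genes, 9684 had values above 0, and their median difference was 0.066. The part of macrophages, fibroblasts, glia or blood in the class II values was not tested.

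**Figure D2:**
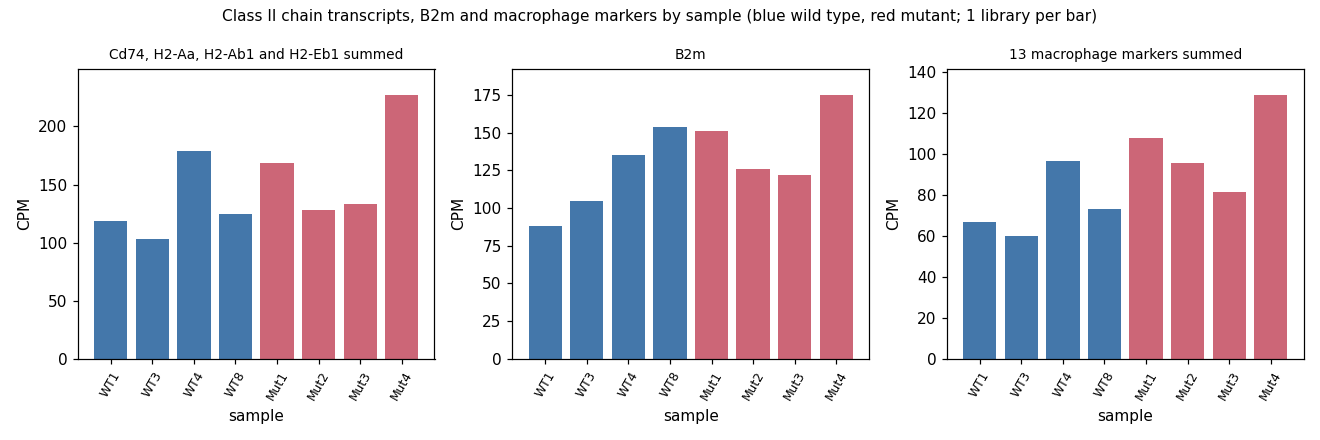
Bars give the CPM (vertical axis, from 0) of each of the 8 samples for the 4 class II transcripts summed, for B2m and for 13 macrophage markers summed, wild types in blue and mutants in red. Mutant 4 is the highest bar in all 3 panels, at 227, 175 and 129 CPM.

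All 11 transcription factors of the interferon pathways were tested, with a median difference of 0.009, and none was called. Stat2, a core factor of the type I pathway, was at 73.2, 78.2, 76.6 and 82.3 CPM in wild types against 81.3, 83.3, 74.8 and 72.2 CPM in mutants, a difference of 0.00 with a 95% confidence interval of -0.14 to 0.15 (limma adjusted p = 0.977). Irf9 differed by 0.01 (95% confidence interval -0.28 to 0.30) and Irf7, which amplifies interferon production, by -0.06 (-0.52 to 0.40). Irf1, which carries the gamma response forward, differed by 0.08 (-0.25 to 0.41). Irf8 and Irf4, factors of immune cell development, differed by -0.23 and 0.12, with limma adjusted p of 0.602 and 0.907.

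The other factors, Irf2, Irf3 and Irf5, had unadjusted limma p under 0.05. Irf2 (ENSMUSG00000031627, chr8:46739732-46847458 in GRCm38, plus strand), which competes with IRF1 for response elements and mostly represses, was at 27.6, 21.2, 26.7 and 22.1 CPM in wild types against 18.5, 18.8, 20.3 and 12.4 CPM in mutants. Every mutant lay below every wild type, mutant 4 lowest. The difference was -0.49 (SE 0.144; limma adjusted p = 0.0653), and the p of 0.0286 from the exact two-sided permutation test is the smallest possible for 4 against 4. The gene was called at -0.58 after median centring (limma adjusted p = 0.0308), at -0.57 after quantile normalization (0.0479), at -0.54 with voom on recovered reads (0.0478) and at -0.56 without mutant 3 (0.0396). Without mutant 4 it was -0.33 (limma adjusted p = 0.141), without wild type 1 it was -0.42 (0.183), and with no variance trend the adjusted p was 0.175. Irf3, which starts interferon beta transcription after nucleic acid sensing, was at 18.6, 15.2, 20.4 and 18.4 CPM in wild types against 19.9, 25.1, 21.1 and 23.6 CPM in mutants. Wild type 4 lay above mutant 1 and the rest did not overlap, with a difference of 0.30 (SE 0.113; limma adjusted p = 0.137). Irf5 (ENSMUSG00000029771, chr6:29526625-29541871, plus strand), a factor of myeloid cells, was at 6.03, 6.14, 5.04 and 4.04 CPM in wild types against 8.22, 6.15, 6.16 and 9.01 CPM in mutants. All mutants lay above all wild types, mutants 2 and 3 by a margin of under 1 read's worth, and the difference was 0.45 (SE 0.185; limma adjusted p = 0.171).

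The IFIT family binds foreign RNA and limits its translation, and it held the 1 call. Ifit2 (ENSMUSG00000045932, chr19:34550694-34576419 in GRCm38, plus strand) was at 30.3, 29.6, 30.4 and 31.6 CPM in wild types, from 191, 236, 205 and 250 reads. It was at 22.4, 24.3, 25.1 and 24.5 CPM in mutants, from 150, 150, 163 and 171 reads. The groups were each narrow and did not overlap, with means of 30.5 ± 0.831 and 24.1 ± 1.15 CPM (SD, n = 4). Ifit2 fell by 0.34 in log2 CPM (SE 0.0797, 95% confidence interval -0.51 to -0.17; limma adjusted p = 0.0236) to 0.79 times the wild-type level, with p = 0.0286 by exact two-sided permutation. The call held in 9 of 10 alternatives that kept all 8 samples and was missed without the variance trend, at a limma adjusted p of 0.0586. Leaving out 1 sample also ended the call for mutant 1 (limma adjusted p = 0.0684), mutant 2 (0.0506), wild type 1 (0.0641), wild type 3 (0.0501) and wild type 8 (0.0566), with differences of -0.35 to -0.30 throughout. Over samples 1, 3 and 4 of both genotypes alone the difference was -0.32. It was not called there, with a block for the shared numbers (limma adjusted p = 0.111) or without (0.101).

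The other IFIT genes lie beside Ifit2 on chromosome 19 and were not called. Of all 6 IFIT genes, 4 had values below 0 and the median was -0.24. Ifit1 was at 21.3, 14.8, 14.8 and 21.7 CPM in wild types against 15.8, 11.0, 15.1 and 18.6 CPM in mutants. The groups overlapped, and the difference was -0.26 (SE 0.168; limma adjusted p = 0.404). Ifit3 differed by 0.00 (95% confidence interval -0.37 to 0.38), Ifit3b by -0.24 (-0.73 to 0.24), Ifit1bl1 by 0.19 (-0.43 to 0.82) and Ifit1bl2 by -0.23 (-0.98 to 0.51). Ifit3 and Ifit3b are 97.8% identical over 1700 bases, so the split of reads between them is uncertain. Whether Ifit2 differed more than its neighbours was not tested.

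**Figure D3:**
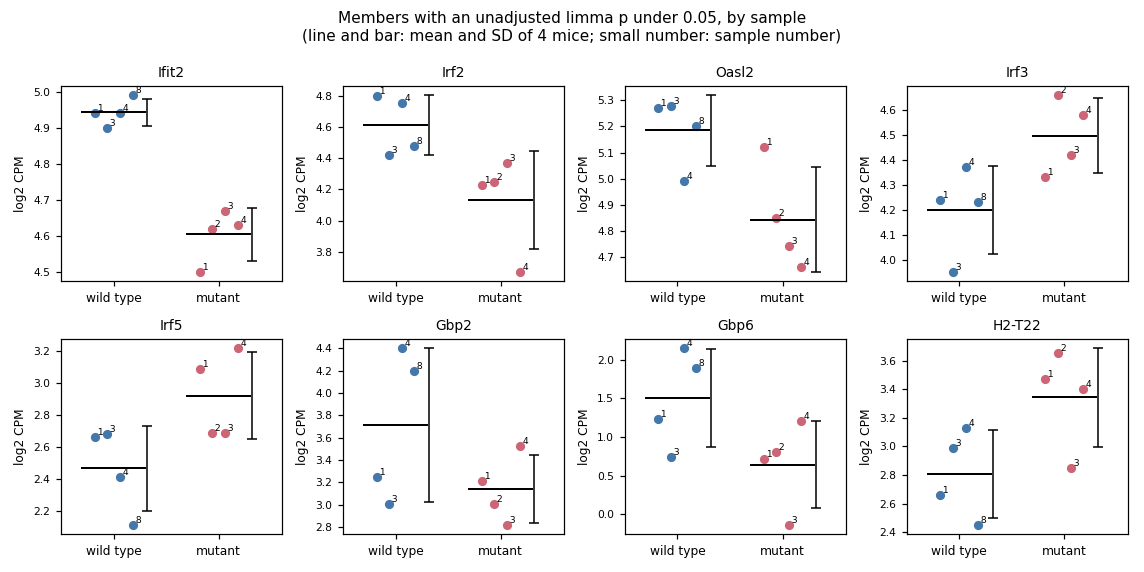
Log2 CPM of each sample (vertical axis, own range per panel) for the 8 genes with an unadjusted limma p under 0.05, numbered by sample, with the mean (line) and SD (bar) of 4 mice. Ifit2, Irf2 and Irf5 are the genes whose groups do not overlap, and wild types 4 and 8 stand above the rest for Gbp2 and Gbp6.

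The oligoadenylate synthetases make the messenger that activates RNase L, and 5 of 12 were tested with none called. Oasl2 (ENSMUSG00000029561, chr5:114896936-114912234 in GRCm38, plus strand), which encodes an OAS-like protein with a ubiquitin-like tail, was at 38.4, 38.5, 31.4 and 36.4 CPM in wild types against 34.5, 28.6, 26.5 and 25.0 CPM in mutants. Wild type 4 lay below mutant 1, and the rest did not overlap. Oasl2 differed by -0.34 (SE 0.105; limma adjusted p = 0.0762; exact two-sided permutation p = 0.0571). It was called after median centring (-0.43; limma adjusted p = 0.0379), without wild type 4 (-0.40; 0.0393) and without mutant 1 (-0.43; 0.0345). It was -0.28 without mutant 4 (limma adjusted p = 0.195) and -0.31 without wild type 1 (0.193), and with no variance trend the adjusted p was 0.178. Oas1c, Oas1b, Oas2 and Oasl1 differed by -0.19 to 0.03, and Oas1a had 1 to 7 reads and was not tested.

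Guanylate-binding proteins are GTPases induced chiefly by interferon gamma that attack the membranes of intracellular pathogens. All 6 genes tested of 8 had values at or below 0, with a median of -0.27, and none was called. Gbp2 was at 9.21, 7.77, 20.9 and 18.1 CPM in wild types against 8.96, 7.76, 6.78 and 11.3 CPM in mutants. Wild types 4 and 8 stood above all other samples, and wild types 1 and 3 lay among the mutants. The difference was -0.57 (SE 0.266, limma adjusted p = 0.232). Gbp6 was also highest in wild types 4 and 8, with 13, 11, 28 and 27 reads in wild types against 9, 9, 4 and 14 in mutants, and differed by -0.86 (95% confidence interval -1.60 to -0.12; limma adjusted p = 0.165). Its identifier is named Gm43302 in GENCODE and is 99.8% identical over 3923 bases to another gene named Gbp6, so its reads are uncertain. Gbp3 had 30, 33, 76 and 81 reads in wild types against 47, 46, 39 and 51 in mutants, again highest in wild types 4 and 8, with a difference of -0.00 (95% confidence interval -0.57 to 0.57). Gbp7 differed by -0.09 (-0.42 to 0.25).

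Some interferon-induced transmembrane proteins block the entry of viruses at membranes, and the genes counted here share the Ifitm symbol, not necessarily that role. All 4 of 7 Ifitm genes that were tested had values above 0, with a median of 0.41, and none was called. Ifitm3 was at 14.9, 15.2, 25.2 and 22.2 CPM in wild types against 27.8, 23.4, 17.1 and 35.6 CPM in mutants. Mutants 1 and 4 lay above all wild types and mutants 2 and 3 among them, and the difference was 0.41 (SE 0.203; limma adjusted p = 0.270). Ifitm2 differed by 0.42 (SE 0.198; limma adjusted p = 0.238), Ifitm10 by 0.21 and Ifitm1, with 1 to 9 reads per library, by 0.69 (95% confidence interval -0.12 to 1.50). Isg15, a ubiquitin-like modifier and a standard marker of interferon exposure, had 14, 10, 11 and 28 reads in wild types against 18, 11, 7 and 21 in mutants. Its difference was -0.01, and at this depth the 95% confidence interval ran from -0.72 to 0.70. Reads of Isg15 may be shared with AC151275.1 (95.2% identity over 482 bases) and those of Ifitm2 with Gm11951 (97.0% over 432 bases). Bst2, also called tetherin, which holds budding virus at the cell surface, differed by -0.22 (SE 0.179; limma adjusted p = 0.530).

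**Figure D4:**
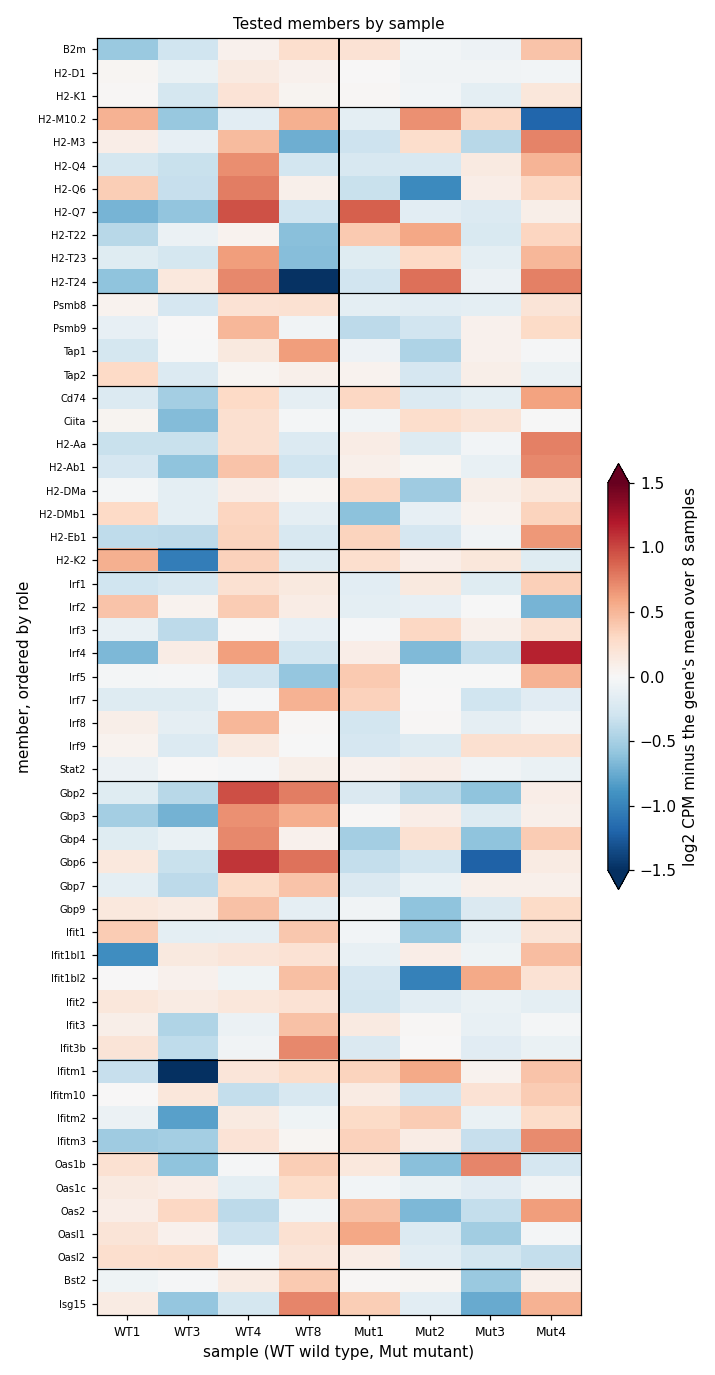
Colour gives log2 CPM minus the gene's own mean over the 8 samples (scale from -1.5 to 1.5) for 55 of the 57 tested genes (rows, ordered by role) in each sample (columns, wild types left of the line). Wild types 4 and 8 are red for Gbp2, Gbp3 and Gbp6, and mutant 4 is red for Cd74, H2-Aa, H2-Ab1 and H2-Eb1.

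Genes of the same pathways outside the symbol rule gave 6 calls. Among 20 interferon ligands, receptors and kinases 13 were tested, and the ligand genes Ifnb1, Ifng, Ifne, Ifnl2, Ifnl3 and Ifna4 had 3 reads or fewer in every library. Jak1, a kinase of both interferon receptor types, fell by 0.31 in log2 CPM (SE 0.0510; limma adjusted p = 0.00339), and Stat3 fell by 0.26 (SE 0.0561; limma adjusted p = 0.0148). The receptor genes Ifnar1, Ifnar2, Ifngr1 and Ifngr2 differed by -0.14, 0.05, 0.22 and -0.07 and were not called. None of 12 genes tested for sensors of RNA and DNA and their adaptors and kinases was called. Of 43 other interferon-induced genes tested 2 fell, Trim25, a ubiquitin ligase for the sensor RIG-I, by 0.63 (SE 0.112; limma adjusted p = 0.00519) and Lgals9, a secreted galectin, by 0.49 (SE 0.0841; limma adjusted p = 0.00429). Of 22 other antigen presentation genes tested 2 rose, Mr1, which presents vitamin B metabolites, by 0.72 (SE 0.154; limma adjusted p = 0.0144) and Hfe, a class I-like regulator of iron uptake, by 0.75 (SE 0.203; limma adjusted p = 0.0437). Those counts, 0 higher and 2 lower of 13, 0 and 0 of 12, 0 and 2 of 43 and 2 and 0 of 22, stand beside 2.81% higher and 2.64% lower of all genes tested. The Stat3 call was missed without wild type 1 (limma adjusted p = 0.0569), and without the variance trend the calls of Jak1 (0.0654), Lgals9 (0.0654), Trim25 (0.0674), Stat3 (0.113) and Hfe (0.110) were missed. Hfe also depended on single samples, and its call was missed without mutant 1 (limma adjusted p = 0.0680), mutant 2 (0.0985), mutant 4 (0.134), wild type 1 (0.130), wild type 3 (0.107) and wild type 8 (0.0670), as well as without the filter (0.0646), after quantile normalization (0.0780) and with Xist as a covariate (0.0603).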

How the data were processed

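The values in the table the authors deposited are moderated log2 CPM per gene, that is, reads per 1000000 of the library total with a small count added before the logarithm, per the file headers and values. Per the submitters' processing notes, Salmon 0.11.1, DESeq2 and the build mm9 were used, with no role given for any of them, and the use of strand, the annotation release and the counting rules are not given in the sources used here. RNA was isolated with a kit for small samples and read single-end, per the labels' protocols.

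The table had 41422 lines and 40800 identifiers, and the 402 that repeated carried the same values and were used once. All samples shared a floor of -1.79, the value of 0 reads, and 100.0% of values up to 2000 reads were whole multiples of 1 read within 0.1 reads, which gave reads and library totals. Detection was set at 3 reads, and such floors cover counting error only, since reads are not independent molecules.

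Mutants were compared with wild types by limma 3.58.1 in R 4.3.3 with a mean-variance trend, two-sided, without covariates, after a filter of log2 CPM above 0 in at least 4 of 8 samples, with the Benjamini-Hochberg adjustment over all genes. Single genes were also tested by exact two-sided permutation over 70 assignments. The procedure was tested on simulated data. Alternatives varied the filter, the added count, the scaling, the variance model, sample weights, Xist as covariate, a replicate block and each sample left out. The design, named genes and lists were chosen with earlier results of these data known. Genes named are those called, those whose groups did not overlap, a list by name, and the largest and smallest value of each role group. Of the genes tested, 2 enter the counts and are not reported here by name.

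Gene positions come from GENCODE M21 (GRCm38), which matched 40254 identifiers and all 97 genes, and promoters from RefSeq. The authors' build differs, so positions only place the genes. Near copies were found with blastn 2.17.0 at 90% identity over 200 bases or more and affect 23 of the 57 tested genes, whose counts are uncertain. Python 3.11.15 with numpy 2.4.6, pandas 2.3.3, scipy 1.17.1 and matplotlib 3.10.9 made the tables and plots.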

Additional observations from a re-analysis of the deposited data

Results flagged for a closer look

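In 3 of the 128 groups of 4 samples examined, 1 sample stood far from the rest of its group. By chance 1 in 20 groups, or 6.40, would. Bst2 was lowest in mutant 3, at a log2 CPM of 2.20 (28 reads) against 2.78 to 2.84 in the other mutants (41 to 48 reads). Ifit1bl1 was lowest in wild type 1, at 0.12 (5 reads) against 1.20 to 1.28 (14 to 17 reads). Psmb8 was highest in mutant 4, at 2.92 (51 reads) against 2.57 to 2.58 (35 to 38 reads).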

How the results depend on the processing

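No difference among the named genes reversed while called, and 17 of the 43 named genes tested changed sign in some alternative, none of them called there. Beside the main count of 0 higher and 1 lower, members called lower numbered 3 after median centring (Ifit2, Irf2 and Oasl2), 2 after quantile normalization, 2 with voom, 0 with no variance trend, 3 where adjusted p under 0.1 made a call, and 0 to 2 with 1 sample left out, where members called higher numbered 0 to 1. The 1 called higher was H2-T22 without mutant 3. Among all genes, beside 423 higher and 397 lower, the counts were 204 and 706 after median centring, 271 and 422 after quantile normalization, 253 and 535 with voom, 67 and 75 without the variance trend, 876 and 612 at an adjusted p under 0.1, and 174 to 572 higher and 230 to 427 lower with 1 sample left out. The cause was not tested.

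Samples 1, 3 and 4 of both genotypes share numbers, and the labels do not say whether these are pairs. Deviations of same-numbered samples correlated at 0.081, 0.041 and 0.058. That cannot decide it, because a weak correlation over all genes can hide pairing in some of them. The main fit did not use pairs, and whether the numbers are pairs was not settled. With the replicate block over these 6 samples, 3 of the 57 members were called higher (B2m, 0.46; Cd74, 0.39; H2-Eb1, 0.45) and 0 lower. All genes gave 326 higher (2.17%) and 345 lower (2.30%). The same 6 samples without the block gave 0 members higher, 0 lower, and 180 genes higher (1.20%) and 267 lower (1.78%). The IFIT median moved from -0.24 to 0.06 in both fits. Depth limits genes with few reads, and 8 of the 57 intervals reached beyond 2-fold.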
